A study of Mus musculus with 16 samples.

Results

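The genes described here are 49 genes of the contractile apparatus of striated muscle other than the myosin heavy chains and the troponins. They were taken by name from the 49585 genes of 2 count tables by a list of symbols that was drawn up with earlier results of these data known, and all 49 had a row in both tables. They fall into 6 roles, with 11 genes of the thin filament, 7 of the myosin light chains and their kinases, 8 of titin, the M-band and the myosin-binding proteins, 12 of the Z-disc, 5 of intermediate filament, filamin and Xin repeat proteins, and 6 of Kelch, TRIM and ankyrin repeat proteins.

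The data are 16 RNA-seq libraries of C2C12 cells, a mouse myoblast line that leaves the cell cycle and fuses into myotubes when serum is lowered. The first table holds WT and AMPK-KO cells at d0, in growth medium, and at d8 of differentiation in low horse serum, with 2 libraries in each of 4 groups. AMPK is the kinase that senses cellular energy, and the AMPK-KO cells were edited with CRISPR-Cas9 in *Prkaa1* and *Prkaa2*, which encode its catalytic subunits α1 and α2. The second table holds d0 cells of 4 clones, all AMPK-/-, with 2 libraries a clone. In 2 of these clones (TET2-WT) a FLAG-BirA tag with EGFP was inserted at the endogenous *Tet2* locus, and in the other 2 (TET2-S97E) the same insertion also carried a change of serine 97 to glutamate that mimics phosphorylation of TET2, a 5-methylcytosine dioxygenase. The study derived several AMPK-KO clones, and a figure with DNA methylation and RNA-seq tracks at *Pax7* is described as showing 2 independent AMPK-KO lines. The labels do not tie a library to a line, so which line gave each AMPK-KO library is not given in the sources used here. The libraries held 17883417 to 24663079 counts (WT and AMPK-KO) and 19801909 to 37790358 counts (TET2 lines). Each table was normalized on its own, so levels are compared between groups only within a table.

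In the sarcomere, actin-based thin filaments slide past myosin filaments between Z-discs that anchor the thin filaments of neighbouring sarcomeres. Titin spans from Z-disc to M-band, nebulin runs along the thin filament, tropomyosin covers its myosin binding sites, and tropomodulins and leiomodins cap or elongate its slow-growing end. Myoblasts hold little of this apparatus and build it as they differentiate. Several of its genes are transcribed through E-boxes bound by MyoD family factors, MEF2 sites, and CArG boxes bound by serum response factor.

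The edited genes were read first. *Prkaa1* stood at 159 and 159 CPM (normalized counts scaled to library size) in the WT libraries and at 79.7 and 78.0 CPM in the AMPK-KO libraries at d0, and at 126 and 125 against 83.3 and 82.5 CPM at d8. *Prkaa2* stood at 1.69 and 1.79 against 0.209 and 0.421 CPM at d0 and at 6.22 and 10.1 against 1.26 and 0.826 CPM at d8. Both genes were lower in every AMPK-KO library than in the WT libraries of the same day, and transcripts of *Prkaa1* remained. Counts over whole genes do not show the edited exons, the FLAG-BirA tag or codon 97. *Tet2* was at 34.3 and 22.5 CPM in TET2-WT clone 1 and 58.4 and 56.4 CPM in clone 2. In TET2-S97E, *Tet2* was at 12.9 and 22.0 CPM in clone 1 and 7.88 and 22.1 CPM in clone 2 (log2 fold change −1.40, adjusted p = 0.0621 by the quasi-likelihood method of edgeR).

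The labels were also set against cell type markers. *Des*, a myoblast marker, was high in all 16 libraries, while *Pax7*, the satellite cell factor, gave 167 and 169 counts with WT myoblasts but 0 and 1 with AMPK-KO myoblasts. The summed level of the 7 myotube markers measured, with *Tnnt3* the most abundant over all 16 libraries, was 97.8 and 73.0 CPM in WT and 7.01 and 10.8 CPM in AMPK-KO myoblasts, and 2194 and 3604 CPM in WT and 692.9 and 3860 CPM in AMPK-KO cells at d8. Among the d0 libraries of the TET2 table it was 11.3 to 133.4 CPM in TET2-WT and 196.5 to 1916 CPM in TET2-S97E, so the TET2-S97E libraries labelled myoblasts carried more myotube transcripts than any TET2-WT library. Endothelial markers summed to at most 13.0 CPM and immune markers to at most 7.87 CPM in any library. In bulk RNA, fewer differentiated cells and less RNA per differentiated cell cannot be told apart.

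In several groups the 2 libraries stood apart. AMPK-KO replicate 2 at d8 was above replicate 1 in 43 of 45 members compared, by a median of 1.96 on the log2 scale. TET2-WT clone 2 replicate 2 was above replicate 1 in 30 of 35 members (median 1.69), and TET2-S97E clone 2 replicate 2 was below replicate 1 in 38 of 43 (median −1.56). AMPK-KO d8 replicate 1 also held 1389 CPM of 10 interferon-response genes, with *Ifit1* the most abundant, against 46.1 CPM in replicate 2 and 19.7 to 25.6 CPM in the other 6 libraries of that table. The part of this difference between the replicates in the results was not tested, and the counts of members called and the medians that rest on these libraries are given with and without them.

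The promoters of 38 of the 49 members were in the RefSeq promoter table for GRCm38.p6, with 48 transcription starts. In the 250 bases before the start, an E-box (CANNTG) was found in 77.1% of these promoters and in 66.2% of the 32851 promoters of the table. A CArG box was found in 14.6% against 1.47%, and a MEF2 site in 16.7% against 2.92%. Among the members these were 7 and 8 of the 48 starts, where a gene may count more than once. *Ldb3* gave 2 of the 7 and *Synpo2l* 2 of the 8. The letters CATTCC, the M-CAT element of TEAD factors, were found in 25.0% against 12.6%, and TATAAA in 12.5% against 12.4%. Both strands were searched for each motif on its own, so a base may lie in matches of more than 1 motif. The 200 bases before the start are shown for 4 members: *Acta1* and *Mylpf*, the most abundant members at d8, and *Mylk4* and *Xirp2*, which were near 0 in AMPK-KO myoblasts. They run 5′ to 3′ toward the start, with E-boxes and CArG boxes in capitals.
Acta1, chr8:123894776-123894975, minus strand: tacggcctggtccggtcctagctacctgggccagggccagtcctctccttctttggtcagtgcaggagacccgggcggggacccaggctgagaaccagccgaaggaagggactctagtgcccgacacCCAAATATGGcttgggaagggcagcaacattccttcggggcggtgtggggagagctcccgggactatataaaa
Mylpf, chr7:127211408-127211607, plus strand: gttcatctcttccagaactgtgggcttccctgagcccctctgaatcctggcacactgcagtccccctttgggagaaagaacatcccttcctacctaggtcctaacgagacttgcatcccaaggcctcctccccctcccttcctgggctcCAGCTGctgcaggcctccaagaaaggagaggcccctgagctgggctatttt
Mylk4, chr13:32783965-32784164, minus strand: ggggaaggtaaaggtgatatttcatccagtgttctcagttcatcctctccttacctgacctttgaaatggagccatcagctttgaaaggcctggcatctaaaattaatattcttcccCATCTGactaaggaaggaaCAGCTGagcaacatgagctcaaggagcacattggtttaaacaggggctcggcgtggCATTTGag
Xirp2, chr2:67445802-67446001, plus strand: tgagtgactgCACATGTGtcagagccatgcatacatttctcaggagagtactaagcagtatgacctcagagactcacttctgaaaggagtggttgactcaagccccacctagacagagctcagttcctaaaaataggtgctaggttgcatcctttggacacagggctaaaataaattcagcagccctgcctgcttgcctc
The *Acta1* window held a CArG box from −73 to −64, counted from the base before the start as −1. *Acta1* also had 2 E-boxes in the 250 bases searched, beginning at −238 and −221, before the printed stretch. The *Mylpf* window held 1 E-box, from −51 to −46. The *Mylk4* window held 3, beginning at −83, −64 and −8, and the *Xirp2* window 2 that overlap, beginning at −190 and −188. These are matches of letters and not measured binding sites. In GENCODE on the same build, *Acta1* (ENSMUSG00000031972.5) spans chr8:123891769-123894751 on the minus strand, *Mylpf* (ENSMUSG00000030672.12) chr7:127208890-127214298 on the plus strand, *Mylk4* (ENSMUSG00000044951.13) chr13:32700834-32783954 on the minus strand, and *Xirp2* (ENSMUSG00000027022.13) chr2:67446002-67526614 on the plus strand. The *Mylpf* window therefore lies within the span of its GENCODE gene, and the other 3 windows lie upstream.

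Of the 49 members, 46 passed the filter on low counts in the first table, and *Myl3*, *Myot* and *Myoz3* did not. *Myl3*, a slow and ventricular light chain, had at most 3 counts in any library of that table, *Myoz3* had at most 2, and *Myot*, the Z-disc protein myotilin, reached 88 counts in WT replicate 2 at d8. In the data of the TET2 lines the filter was applied for each model, and 35 members passed it in the model with a mean per genotype and 42 in the model with a mean per clone. The filter asks for enough counts in as many libraries as the smallest group holds, so a member may pass through 1 group alone. Levels compared between genes are given in TPM, a scale that divides by exon length. *Des* (mean TPM 1380), *Ankrd1* (1090) and *Tpm1* (515) led in WT myoblasts, and *Acta1* (7950) and *Mylpf* (4520) in WT cells at d8, when *Acta1* made up 27.5% of the summed TPM of the members. In AMPK-KO cells *Des* (935) and *Tpm1* (839) led at d0 and *Acta1* (8670, 37.5% of the members) at d8. The summed level of the 49 members was 5141 and 6031 CPM in WT and 4779 and 4618 CPM in AMPK-KO cells at d0, a narrow range next to the rise to 18280 and 23720 CPM in WT at d8. AMPK-KO cells at d8 held 8807 CPM in replicate 1 and 24100 CPM in replicate 2.

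**Figure D1:**
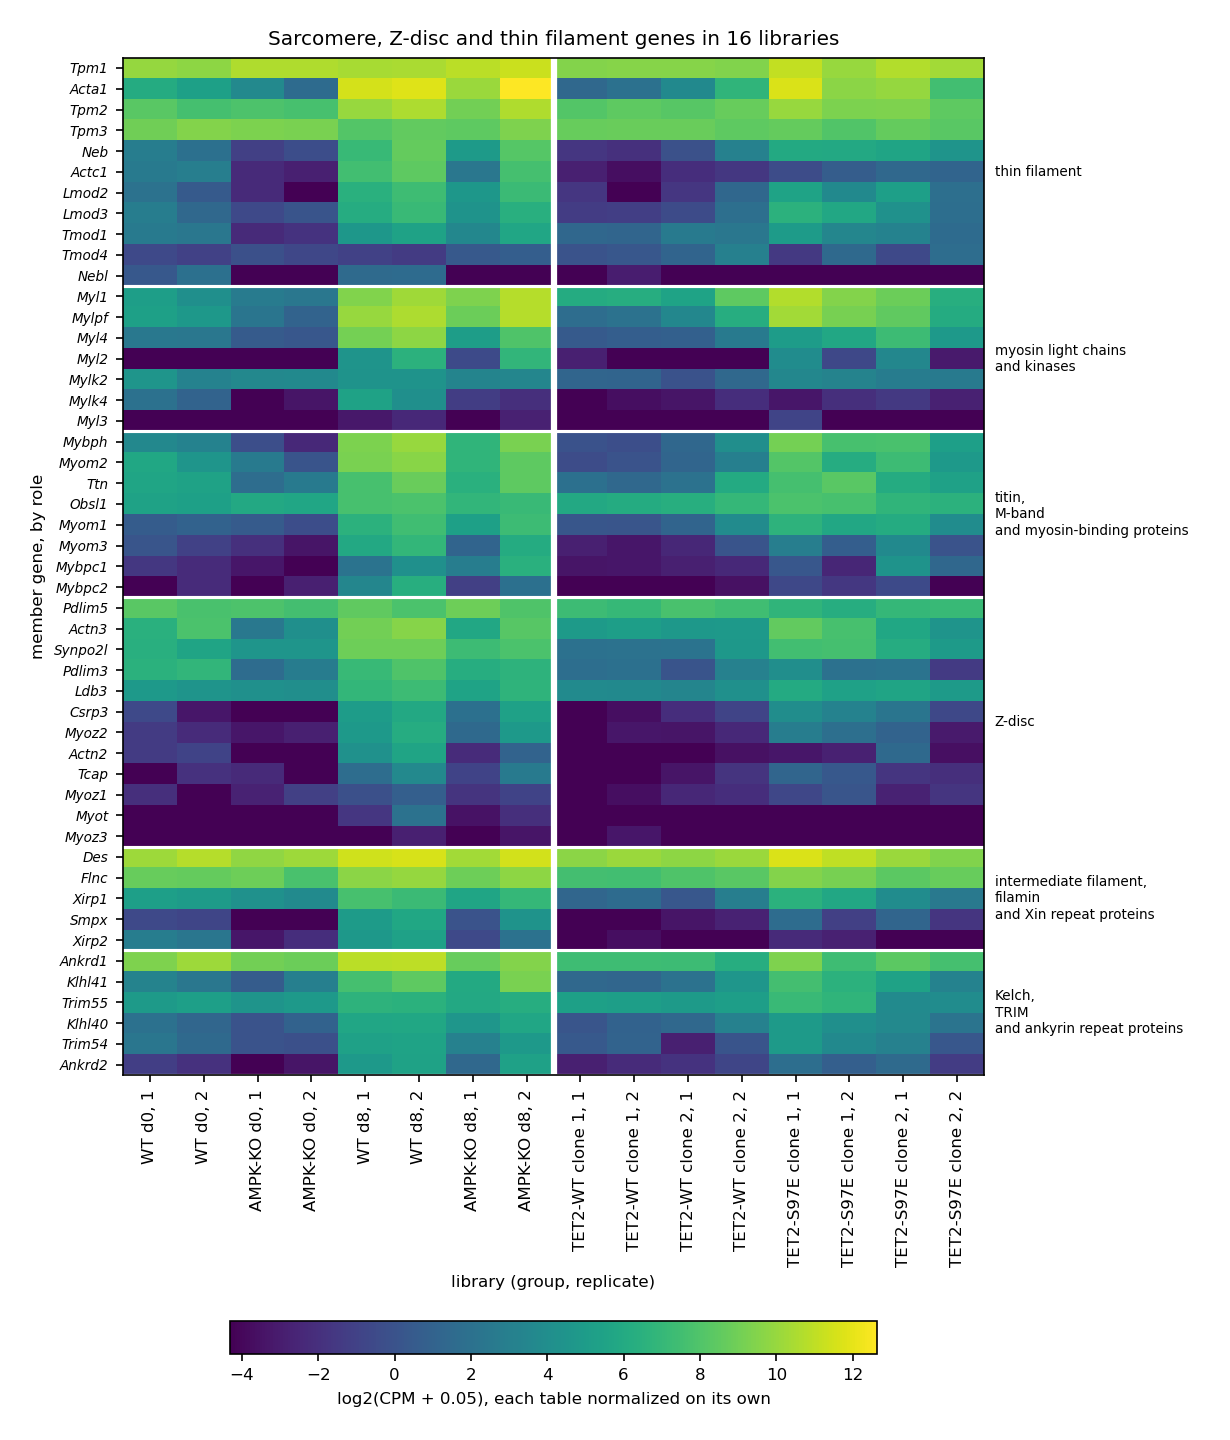
Level of each of the 49 members (rows, grouped by role) in the 16 libraries (columns, WT and AMPK-KO table at the left, TET2 table at the right), as log2 of CPM + 0.05. Lighter colours stand for higher levels. The WT libraries at d8 and AMPK-KO replicate 2 at d8 form the lightest columns on the left, *Nebl* and *Mylk4* are dark in the AMPK-KO and TET2 columns, *Xirp2* is dark in the AMPK-KO columns at d0 and in the TET2 columns, and *Des*, *Tpm1* and *Tpm3* are light throughout.

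Differentiation of WT cells raised 29 of the 46 members tested and lowered none (edgeR's quasi-likelihood test, adjusted p under 0.05). Of all 14329 genes tested, 5.78% were higher at d8 and 6.58% lower. At an unadjusted p under 0.05, 40 members were higher and 1 lower, against 2164 and 2292 of all genes, and DESeq2 called none lower. The median log2 fold change was 3.85 over the members and 0.0132 over all genes tested. The members that rose were 6 of 11 tested in the thin filament, 4 of 6 among the light chains and kinases, 7 of 8 of the titin and M-band group, 5 of 10 in the Z-disc, 2 of 5 of the intermediate filament group and 5 of 6 of the Kelch, TRIM and ankyrin group.

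In the thin filament, *Acta1*, skeletal α-actin, rose from 70.1 and 39.2 CPM at d0 to 2997 and 3633 CPM at d8 in WT cells (log2 fold change 5.92 ± 1.06 SE, adjusted p = 0.0182 from edgeR). *Tpm2*, β-tropomyosin, rose from 319 and 199.6 to 1069 and 1483 CPM (log2 fold change 2.30, adjusted p = 0.0329). Of the other tropomyosins, *Tpm1* had a log2 fold change of 0.58 and *Tpm3* of −0.91, neither of which passed the test. *Neb*, nebulin, and the leiomodins *Lmod2* and *Lmod3* rose by 5.58, 5.50 and 4.45 on the log2 scale. *Nebl*, which encodes nebulette, stayed low, with 1.25 and 3.74 CPM at d0 and 2.92 and 3.05 CPM at d8.

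Among the light chains, *Mylpf*, the fast regulatory light chain, rose from 39.8 and 26.6 to 1062 and 1542 CPM (log2 fold change 5.29 ± 0.748 SE, adjusted p = 0.0143 from edgeR). *Myl1*, the fast alkali light chain, rose from 36.9 and 17.4 to 704 and 1189 CPM (adjusted p = 0.0143), and *Myl4*, the embryonic and atrial alkali light chain, by 7.03 on the log2 scale. *Myl2*, the slow and ventricular light chain, had no count at d0 in WT and 401 and 2087 counts at d8, at least 823-fold higher with d0 set to the floor of 3 counts over the group, and did not pass the test (adjusted p = 0.102). Of the kinases, *Mylk4*, a member of the myosin light chain kinase family, rose by 3.36 on the log2 scale, whereas *Mylk2*, skeletal myosin light chain kinase, was at 22.6 and 9.05 and then 20.8 and 21.02 CPM and did not pass the test.

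The titin and M-band group rose almost whole. *Ttn*, titin, went from 49.3 and 44.7 to 213 and 446 CPM (log2 fold change 2.81), and the M-band proteins *Myom1*, *Myom2* and *Myom3* rose by 6.25, 4.12 and 6.87 on the log2 scale. *Mybph*, a small relative of myosin-binding protein C, rose from 11.8 and 9.22 to 643 and 1026 CPM (adjusted p = 0.0146 from edgeR). *Obsl1*, obscurin-like 1, had the lowest adjusted p of the members, with 43.2 and 39.1 CPM at d0 and 214 and 227 CPM at d8 (log2 fold change 2.42 ± 0.17 SE, adjusted p = 0.0106).

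In the Z-disc, *Synpo2l*, a synaptopodin relative that binds actin and α-actinin, rose from 81.7 and 48.9 to 487 and 483 CPM (adjusted p = 0.0143 from edgeR). *Actn2* and *Actn3* encode the muscle α-actinins that cross-link thin filaments. *Actn2* rose from 0.338 and 0.488 to 18.8 and 48.6 CPM, while *Actn3*, already at 87.0 and 224 CPM at d0, reached 517 and 756 CPM and did not pass the test (adjusted p = 0.159). *Csrp3*, muscle LIM protein, *Ldb3*, which encodes ZASP, and *Myoz2*, a calsarcin, also rose.

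Of the intermediate filament group, *Des*, desmin, was at 1172 and 1751 and then 2703 and 3215 CPM and *Flnc*, filamin C, at 417 and 393 and then 823 and 1001 CPM. The d8 libraries were above the d0 libraries for both, with log2 fold changes of 1.02 and 1.17 that did not pass the test (adjusted p = 0.143 and 0.101 from edgeR). *Klhl41*, a muscle Kelch protein that binds nebulin, rose from 9.598 and 5.37 to 198 and 349 CPM, and *Ankrd1*, a stress-responsive ankyrin repeat protein that binds titin, was at 652 and 1136 and then 1900 and 1950 CPM (adjusted p = 0.0366 and 0.0798). With the replicate number as a block, *Actn3* and *Des* were called (adjusted p = 0.0215 and 0.0498). DESeq2 called *Des*, *Flnc* and *Ankrd1* (adjusted p = 0.0466, 0.0192 and 0.0108). The count of 29 members higher in WT rested on single libraries. It was 20 without WT replicate 1 at d0 and 0 without WT replicate 2 at d0 or without either WT library at d8, and over all genes the 828 higher at d8 became 978, 0, 2 and 0 in the same order.

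In AMPK-KO cells the members also rose with differentiation. Of 46 tested, 30 were higher at d8 and none lower, where 4.81% of all genes tested were higher and 4.95% lower. At an unadjusted p under 0.05, 38 members were higher and none lower, against 14.7% and 13.7% of all genes, and DESeq2 called none lower. The d8 against d0 comparisons use the same libraries as those of AMPK-KO against WT. The median log2 fold change was 5.28, against 0.0211 over all genes. It was 4.97 with members that had no count at d0 and over 3 counts at d8 set to their bounds. It was 6.12 without AMPK-KO replicate 1 at d8 and 3.70 without replicate 2. By role, 7 thin filament, 3 light chain, 7 titin and M-band, 6 Z-disc, 2 intermediate filament and 5 Kelch, TRIM and ankyrin members rose. *Acta1* went from 12.6 and 2.94 CPM at d0 to 1099 and 6426 CPM at d8 in AMPK-KO cells (log2 fold change 8.93 ± 1.21 SE, adjusted p = 0.0209 from edgeR), and *Mylpf* from 4.76 and 2.06 to 456 and 1748 CPM. *Ttn* went from 3.35 and 5.98 to 89.0 and 354 CPM and *Pdlim3*, a PDZ and LIM protein of the Z-disc, from 3.14 and 6.97 to 74.8 and 101 CPM (adjusted p = 0.0215 and 0.0179). *Mylk4*, *Nebl*, *Actn2* and *Xirp2*, the last a Xin repeat protein of the myotendinous junction and intercalated disc, were not called in AMPK-KO cells. The count of 30 was 0 without either AMPK-KO library at d0 and 19 without WT replicate 2 at d8, and it was 34 and 25 without AMPK-KO replicate 1 or 2 at d8. In the order of these 5 settings, 0, 0, 182, 515 and 289 of all genes were higher, where 689 were with all libraries.

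To see how the loss of AMPK bears on these genes before differentiation, AMPK-KO and WT cells were compared at d0. Of the 46 members tested, 6 were lower in AMPK-KO cells and none higher, against 2.83% of all 14329 genes lower and 0.698% higher. The median log2 fold change was −2.09 over the members and −0.001 over all genes, and 40 members lay below 0. At an unadjusted p under 0.05, 21 members were lower and 2 higher, against 12.9% and 8.03% of all genes, and DESeq2 called 1 member among 371 genes higher. In 33 members both AMPK-KO libraries were below both WT libraries, as in 25.7% of all genes tested. The 6 that fell were *Nebl* and *Tmod1* of the thin filament, *Mylk4* of the kinases, *Pdlim3* and *Synpo2l* of the Z-disc, and *Xirp2*. Of the markers, 3 of 7 for myotubes (median log2 fold change −3.99) and 2 of 6 for myoblasts were lower and none higher. The part of these markers in the members' difference was not tested.

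*Pdlim3* had the lowest adjusted p among them. It was at 90.7 and 118 CPM in WT and at 3.14 and 6.97 CPM in AMPK-KO myoblasts (log2 fold change −4.36 ± 0.473 SE, adjusted p = 0.00871 from edgeR). *Tmod1*, the tropomodulin that caps the pointed end, fell from 5.93 and 5.26 to 0.157 and 0.234 CPM (log2 fold change −4.79 ± 0.897 SE, adjusted p = 0.037). *Synpo2l* changed least of the 6, from 81.7 and 48.9 to 23.2 and 23.3 CPM (log2 fold change −1.49 ± 0.279 SE, adjusted p = 0.037). In none of these did the WT and AMPK-KO libraries overlap.

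The other 3 were at or near 0 counts in AMPK-KO myoblasts. For *Mylk4* the WT libraries held 81 and 39 counts against 0 and 1 for AMPK-KO, a ratio of 124 (95% counting interval 21.8 to 4940, adjusted p = 0.0175 from edgeR). *Nebl* gave 26 and 69 counts with WT and none in either AMPK-KO library, at least 32.7-fold lower with AMPK-KO set to the floor of 3 counts over the group (adjusted p = 0.0365). For *Xirp2* the WT libraries held 152 and 91 counts against 1 and 4 for AMPK-KO (log2 fold change −5.58, adjusted p = 0.038). A floor of 3 counts is 0.157 and 0.140 CPM in the AMPK-KO d0 libraries, and such intervals and floors cover counting error only.

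Other members had large differences that did not pass the test. *Ttn* was at 49.3 and 44.7 CPM in WT and 3.35 and 5.98 CPM in AMPK-KO cells (log2 fold change −3.33, adjusted p = 0.054 from edgeR), *Mylpf* at 39.8 and 26.6 and 4.76 and 2.06 CPM (adjusted p = 0.0561), and *Mybph* at 11.8 and 9.22 and 0.785 and 0.140 CPM (adjusted p = 0.0648). *Acta1* at 70.1 and 39.2 against 12.6 and 2.94 CPM, *Actn3* at 87.0 and 224 against 5.50 and 17.2 CPM and *Myom2* at 55.5 and 22.9 against 6.18 and 1.03 CPM also had no overlap between the groups and were not called (adjusted p = 0.152, 0.0804 and 0.091). *Myl1* stood at 36.9 and 17.4 against 6.70 and 5.19 CPM (adjusted p = 0.0919). The abundant cytoskeletal members differed little. *Des* was at 1172 and 1751 against 893 and 1140 CPM (log2 fold change −0.52), *Tpm2* at 319 and 199.6 against 238 and 207 CPM (−0.22) and *Flnc* at 417 and 393 against 468 and 223 CPM (−0.23), and the last 2 overlapped between genotypes.

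*Ankrd1* (652 and 1136 against 532 and 452 CPM) and *Klhl41* (9.598 and 5.37 against 1.52 and 7.85 CPM) were not called, the second with overlap. *Tpm1*, α-tropomyosin, and *Obsl1* were the members in which both AMPK-KO libraries were above both WT libraries, with 998 and 874 against 1577 and 1585 CPM and 43.2 and 39.1 against 59.5 and 52.4 CPM, and neither was called. Of all 14329 genes, 23.7% were above WT in both AMPK-KO libraries at d0 in this way. With the replicate number as a block *Actn3* was called at d0 (log2 fold change −3.84, adjusted p = 0.0112 from edgeR), and 8 members and 568 of all genes were lower. The count of 6 members depended on single libraries. Without WT d0 replicate 1 or 2 it was 2 or 3, without AMPK-KO d0 replicate 1 or 2 it was 0 or 1, and without either WT library at d8 it was 2. It was 16 without either AMPK-KO library at d8, 18 with DESeq2 and 27 with no filter on low counts. Over all genes the 405 lower became 249 and 377, 13 and 39, 192 and 190, 518 and 514, 1007 and 1453 in the same order, and the number of all genes called thus moved as well. With the libraries of d0 alone 8 members and 285 of all genes were lower, and *Synpo2l* and *Nebl* were not called (adjusted p = 0.0662 and 0.061 from edgeR) while *Mybph* and *Mylpf* were (0.0463 and 0.0381).

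At d8 the same comparison again gave 6 members lower in AMPK-KO cells and none higher, where 3.98% of all genes were lower and 1.36% higher. With no adjustment of p (under 0.05), 14 were lower and 2 higher, against 12.9% and 9.85% of all genes, and DESeq2 called 1 member among 555 genes higher. In each role 1 member fell, and these were *Nebl*, *Mylk4*, *Obsl1*, *Synpo2l*, *Xirp2* and *Ankrd1*. The median log2 fold change was −0.92 over the members and 0.0392 over all genes. It was −0.33 without AMPK-KO replicate 1 at d8, −2.26 without replicate 2 and −0.52 without WT replicate 2. In 22 members both AMPK-KO libraries were below both WT libraries, as in 27.9% of all genes tested. The d0 and d8 comparisons share 1 estimate of the spread but no libraries.

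For *Mylk4* the WT libraries of d8 held 812 and 370 counts against 9 and 4 for AMPK-KO (log2 fold change −6.74 ± 0.73 SE, adjusted p = 0.00629 from edgeR). *Nebl* had 53 and 65 counts in WT and again none in AMPK-KO cells, at least 44.9-fold lower (adjusted p = 0.0253). *Xirp2* was at 25.8 and 41.8 against 0.612 and 4.13 CPM (log2 fold change −3.85 ± 0.814 SE, adjusted p = 0.0428). These 3 were also called at d0, and neither AMPK-KO library at d8 reached the WT level of that day.

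*Ankrd1* was at 1900 and 1950 CPM in WT and 412 and 724 CPM in AMPK-KO cells (log2 fold change −1.76 ± 0.354 SE, adjusted p = 0.0372 from edgeR), and *Synpo2l* at 487 and 483 against 158 and 225 CPM (log2 fold change −1.34, adjusted p = 0.0392). *Obsl1* was at 214 and 227 against 118 and 145 CPM (log2 fold change −0.75 ± 0.162 SE, adjusted p = 0.0459), below WT where at d0 it was above. In all 3 the AMPK-KO replicates lay within 2-fold of each other, while 32 of the 45 members compared were over 2-fold apart.

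Of the abundant members, *Ankrd1* was called at d8, while *Acta1*, *Mylpf*, *Myl1*, *Des* and *Tpm2* were not and overlapped between genotypes. *Acta1* was at 2997 and 3633 CPM in WT and 1099 and 6426 CPM in AMPK-KO cells, *Mylpf* at 1062 and 1542 and 456 and 1748 CPM, and *Myl1* at 704 and 1189 and 664 and 1752 CPM. In each of these AMPK-KO replicate 1 lay below both WT libraries and replicate 2 above both. *Tpm2* (1069 and 1483 against 527 and 1578 CPM) and *Klhl41* (198 and 349 against 62.3 and 597 CPM) split in the same way, and *Des* (2703 and 3215 against 1265 and 2937 CPM), *Flnc* (823 and 1001 against 475 and 871 CPM) and *Ttn* (213 and 446 against 89.0 and 354 CPM) overlapped. *Actn3*, *Mybph* and *Myom2* had both AMPK-KO libraries below WT, at 58.0 and 301, 108 and 607 and 110.4 and 345 CPM against 517 and 756, 643 and 1026 and 589.5 and 778 CPM, without a call. *Tmod4*, a skeletal tropomodulin, and *Tpm1* were above WT in both AMPK-KO libraries, at 1.26 and 1.60 against 0.441 and 0.328 CPM and 1907 and 2466 against 1359 and 1449 CPM, and were not called. Among all genes tested, 4293 had both AMPK-KO libraries above both WT libraries at d8 and 3998 had both below. *Actn2* was at 18.8 and 48.6 against 0.163 and 2.09 CPM (log2 fold change −4.93, adjusted p = 0.0566 from edgeR).

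Same-numbered libraries of the first table deviated together from their group means, so the replicate number was also fitted as a block. With the block, 10 members were lower at d8 instead of 6 and 5.69% of all genes were, and *Mybpc2*, *Pdlim3*, *Actn2* and *Actn3* joined the 6. The count was 1 without either WT library at d8 or without AMPK-KO replicate 1 at d8, 15 without AMPK-KO replicate 2 at d8, 2 without either AMPK-KO library at d0, 3 with the libraries of d8 alone and 25 with no filter on low counts. Over all genes the 571 lower became 99 and 100, 180, 372, 479 and 428, 600 and 1670 in the same order. With the libraries of d8 alone *Ankrd1*, *Xirp2* and *Obsl1* were not called (adjusted p = 0.0596, 0.0874 and 0.0726 from edgeR). The interferon-response genes were high in the same AMPK-KO replicate 1 in which 43 of 45 members were lower than in replicate 2, and their part in the result was not tested.

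**Figure D2:**
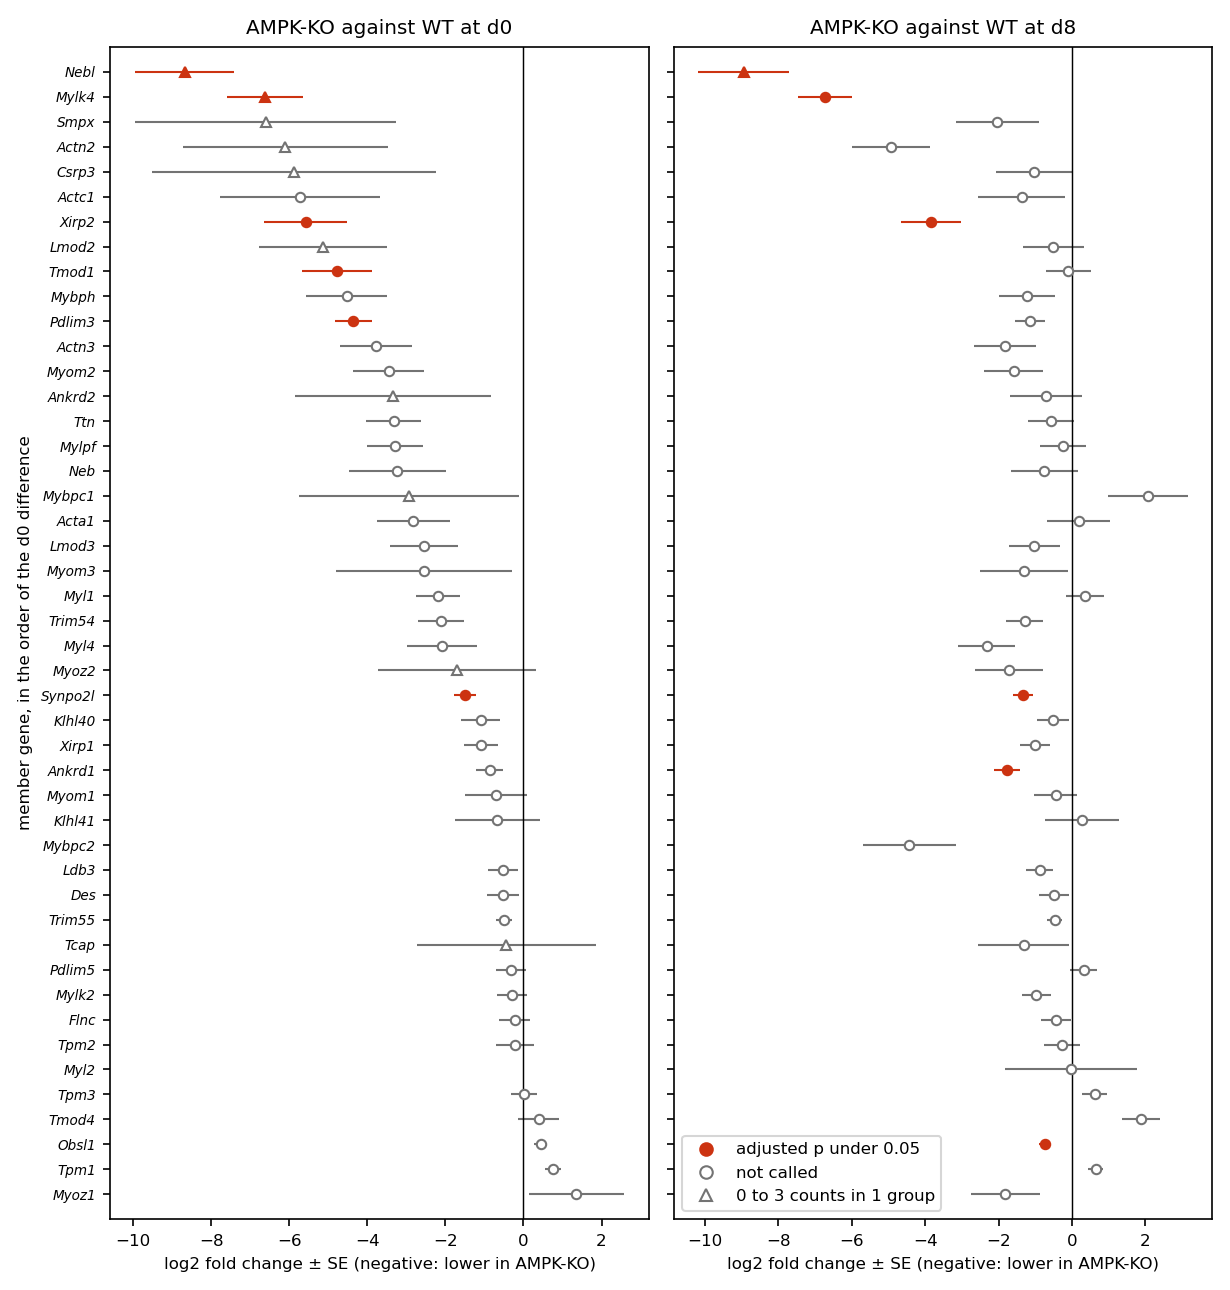
Log2 fold change with its standard error for AMPK-KO against WT at d0 (left) and d8 (right), 1 row per member in the order of the d0 difference; filled red marks have an adjusted p under 0.05, and triangles mark members with 0 to 3 counts over a group, whose position depends on the prior count. Most marks lie left of 0 at d0, and at d8 they gather nearer to 0 except *Nebl*, *Mylk4*, *Xirp2*, *Actn2* and *Mybpc2*.

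Whether differentiation changed a member differently in AMPK-KO and WT cells was tested directly, as the difference of the d8 against d0 changes. No member and 0% of the 14329 genes passed in either direction. At an unadjusted p under 0.05, 8 members had a larger rise in AMPK-KO cells and 1 a smaller one, among 424 and 305 of all genes, and DESeq2 called 2 and 1 members among 23 and 31 genes. The member with a smaller rise was *Obsl1* (difference of log2 fold changes −1.19, adjusted p = 0.876 from edgeR). *Pdlim3* and *Tmod1*, both called at d0 and not at d8, had differences of 3.22 and 4.68 with the same adjusted p.

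A group of 4 members, noticed after the values were seen, was at or near 0 in the AMPK-null libraries of both tables at d0, for *Actn2* with 1 exception. Other members were near 0 there too. *Myot* had no count in these libraries, and *Mybpc2*, *Myl3* and *Myoz3* had at most 13, 10 and 2. Those members had 0 to 3 counts in the WT libraries of d0 as well. *Nebl* had no count in the 4 AMPK-KO libraries and at most 3 in the 8 TET2 libraries, which are AMPK-null as well. *Mylk4* had 0 and 1 counts at d0 and 9 and 4 at d8 in AMPK-KO cells and at most 6 in the TET2 libraries. *Xirp2* gave 1 and 4 and then 15 and 85 counts with AMPK-KO, and at most 3 in the TET2 libraries. *Actn2* was low at d0 in WT as well, with 7 and 9 counts. In AMPK-KO cells it had no count at d0 and 4 and 43 counts at d8. It had at most 3 in the TET2 libraries other than TET2-S97E clone 2 replicate 1, which had 54. In the 4 TET2-S97E libraries, *Acta1* was at 181 to 3313 CPM and *Mylpf* at 70.3 to 1283 CPM, while *Nebl*, *Mylk4* and *Xirp2* had at most 6 counts. All AMPK-null libraries come from edited lines, so the loss of AMPK and the history of those lines cannot be told apart.

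**Figure D3:**
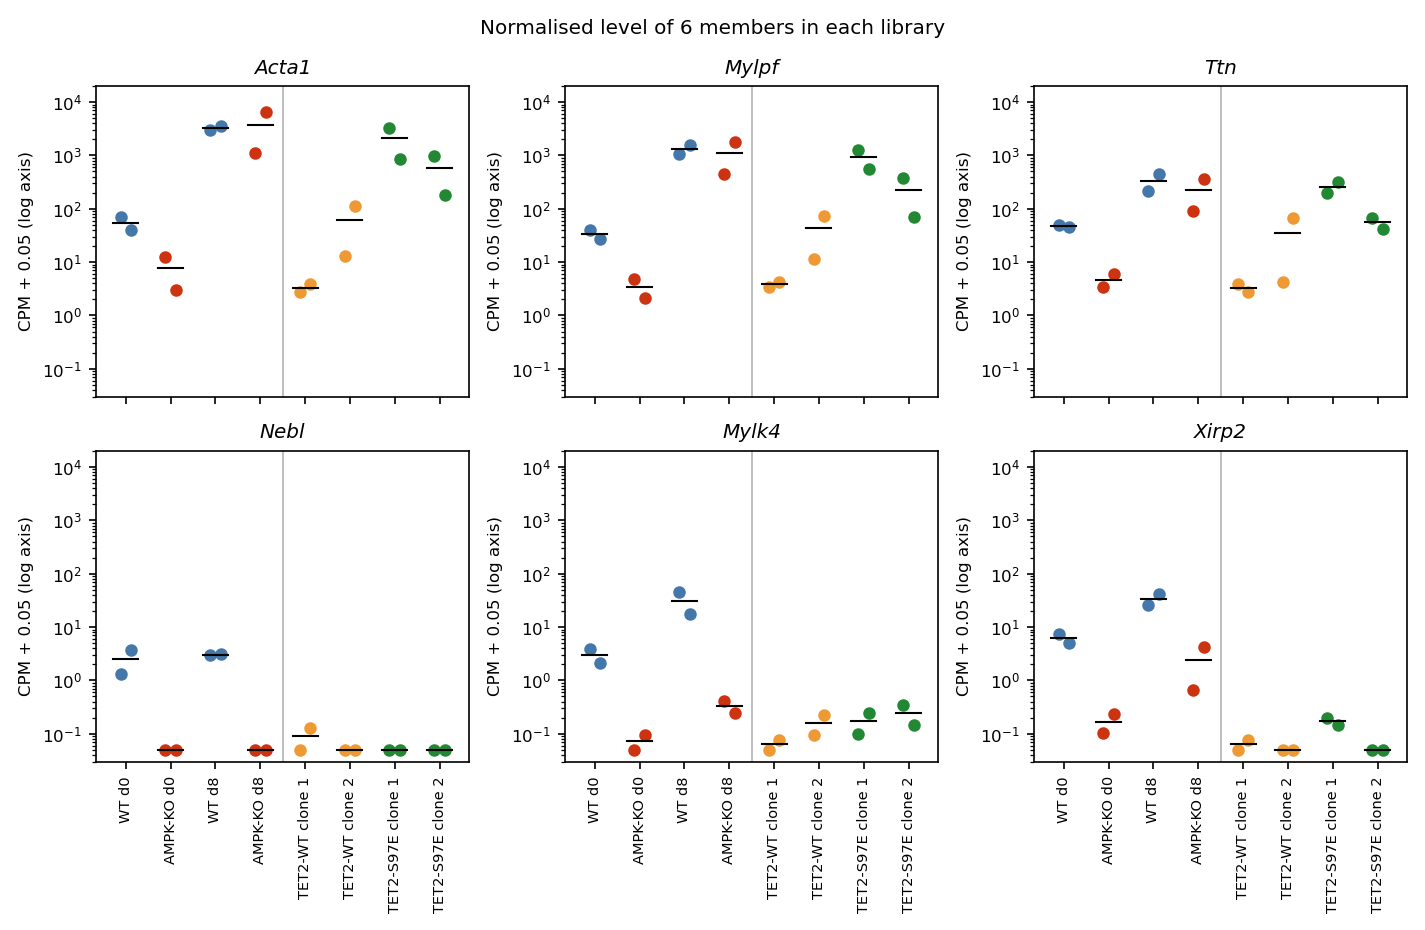
Normalized level (CPM + 0.05, log axis) of *Acta1*, *Mylpf*, *Ttn*, *Nebl*, *Mylk4* and *Xirp2* in each library (points) of the 8 groups, with black bars at the group mean; the 2 tables were normalized separately. *Acta1*, *Mylpf* and *Ttn* are higher at d8 than at d0 in WT and AMPK-KO cells and overlap between TET2-WT and TET2-S97E for *Mylpf* and *Ttn*, while *Nebl*, *Mylk4* and *Xirp2* are highest in the WT libraries.

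The TET2-S97E and TET2-WT lines were compared at d0 to see which members differ with the phosphomimetic change on the AMPK-/- background. In the test over 4 libraries against 4, 18 of 35 members tested were higher in TET2-S97E and none lower, against 3.71% of all 13433 genes higher and 3.28% lower. At an unadjusted p under 0.05, 29 were higher and 1 lower, against 12.3% and 11.2% of all genes, and DESeq2 called none lower. Members low in TET2-WT could pass the filter through the TET2-S97E libraries alone, so the counts of members higher are not free of that selection. *Actc1*, for example, had 1 to 8 counts in the TET2-WT libraries and 14 to 65 in the TET2-S97E libraries. The median log2 fold change was 3.02 over the members and 0.011 over all genes. Without TET2-WT clone 2 it was 4.74 and without TET2-S97E clone 1 it was 1.62, and without replicate 2 of TET2-WT clone 2 or of TET2-S97E clone 2 it was 3.93 or 3.37. By role, the 18 were 6 of 10 thin filament, 3 of 4 light chain, 3 of 6 titin and M-band, 3 of 6 Z-disc, 2 of 3 intermediate filament and 1 of 6 Kelch, TRIM and ankyrin members. The 4 libraries of a genotype come from 2 clones. With counts summed per clone and clones as the units, 0% of genes were called, and no member (lowest adjusted p 0.257 from edgeR), while 30 of 42 members and 810 of 15126 genes were higher at an unadjusted p under 0.05. With clone as a random effect in limma-voom, *Neb* alone passed among the members (adjusted p = 0.0425).

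*Myl4* was at 1.36 and 1.61 CPM in TET2-WT clone 1 and 1.83 and 5.91 CPM in clone 2, and at 34.0 and 57.6 and 161 and 29.5 CPM in the TET2-S97E clones (log2 fold change 4.71 ± 0.714 SE, adjusted p = 0.00833 from edgeR over libraries). *Ldb3* was at 14.2 and 13.4 and 10.5 and 18.4 CPM in the TET2-WT clones and at 66.2 and 41.4 and 47.5 and 29.8 CPM in the TET2-S97E clones (log2 fold change 1.71 ± 0.256 SE, adjusted p = 0.00832). In both genes every TET2-S97E library was above every TET2-WT library, which occurred in 15 members and in 7.30% of all genes tested and gives p = 0.0286 in an exact two-sided permutation test, the smallest that 4 against 4 allows. This test exchanges libraries without regard to clones, and with 2 clones against 2 the smallest p is 0.33.

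In the thin filament, *Acta1* was at 2.67 and 3.90 and 13.0 and 111 CPM in the TET2-WT clones and at 3313 and 839.6 and 992 and 181 CPM in the TET2-S97E clones (log2 fold change 5.34 ± 1.38 SE, adjusted p = 0.0487 from edgeR). *Actc1*, cardiac α-actin and the other sarcomeric actin, was at 0.0904 and 0.0264 and 0.183 and 0.285 CPM against 0.706 and 1.53 and 2.58 and 2.12 CPM (adjusted p = 0.016). *Acta1* in TET2-WT clone 2 replicate 2 reached the level nearest to TET2-S97E, and the lowest TET2-S97E library was clone 2 replicate 2.

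The leiomodins rose from under 4 CPM. *Lmod2* was at 0.271 and 0 and 0.275 and 2.46 CPM in TET2-WT and 46.2 and 13.5 and 38.2 and 3.59 CPM in TET2-S97E (log2 fold change 5.06, adjusted p = 0.0336 from edgeR). *Lmod3* was at 0.362 and 0.396 and 0.687 and 3.56 CPM against 96.8 and 57.0 and 19.4 and 3.43 CPM, with 1 overlap (adjusted p = 0.0261). *Tpm1* moved less, from 715 and 762 and 757 and 680.5 CPM to 2180 and 1051 and 1680 and 1231 CPM (log2 fold change 1.08 ± 0.221 SE, adjusted p = 0.0224). *Neb* was also called (log2 fold change 4.23, adjusted p = 0.0401), and *Tpm2* was not (0.98, adjusted p = 0.0787).

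Of the light chains and kinases, *Mylpf* was at 3.35 and 4.25 and 11.5 and 74.5 CPM in the TET2-WT clones and 1283 and 565 and 371 and 70.3 CPM in the TET2-S97E clones (log2 fold change 4.61, adjusted p = 0.0493 from edgeR), with the groups overlapping by 1 library. *Mylk2* was at 2.26 and 2.19 and 0.916 and 2.60 CPM against 11.4 and 9.70 and 6.82 and 6.21 CPM (log2 fold change 2.09 ± 0.352 SE, adjusted p = 0.0119). *Myl1* was at 68.1 and 75.8 and 46.1 and 342 CPM against 1647 and 716 and 449 and 78.8 CPM and was not called, and TET2-WT clone 2 replicate 2 was above TET2-S97E clone 2 replicate 2.

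Of the titin and M-band group, *Myom2* was at 0.723 and 0.949 and 2.29 and 8.12 CPM in TET2-WT and 279 and 73.2 and 158 and 27.6 CPM in TET2-S97E (log2 fold change 5.47 ± 0.954 SE, adjusted p = 0.0134 from edgeR). *Mybph* was at 0.904 and 0.791 and 2.47 and 16.8 CPM against 561 and 213 and 224 and 37.5 CPM (adjusted p = 0.0242). *Myom1* was called as well (3.67, adjusted p = 0.0412). *Ttn*, at 3.75 and 2.66 and 4.26 and 66.2 CPM against 201 and 313 and 68.1 and 42.4 CPM, was not (adjusted p = 0.14).

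In the Z-disc, *Csrp3* was at 0 and 0.0264 and 0.183 and 0.499 CPM in TET2-WT and 16.1 and 9.21 and 4.90 and 0.588 CPM in TET2-S97E (adjusted p = 0.0255 from edgeR), and *Synpo2l* at 3.93 and 4.17 and 4.40 and 25.9 CPM against 181 and 197 and 71.6 and 30.7 CPM (adjusted p = 0.029). *Actn3*, at 30.5 and 35.9 and 26.1 and 28.7 CPM against 382 and 213 and 55.9 and 21.8 CPM, was high in clone 1 of TET2-S97E but below the TET2-WT range in clone 2 replicate 2, and was not called (adjusted p = 0.0728). *Pdlim3*, called in AMPK-KO cells, was not called here, with 3.44 and 3.82 and 1.01 and 8.77 CPM against 17.1 and 4.04 and 4.44 and 0.327 CPM.

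Of the remaining roles, *Xirp1* was at 2.40 and 3.01 and 1.19 and 7.45 CPM in TET2-WT and 89.9 and 58.7 and 15.1 and 5.65 CPM in TET2-S97E (adjusted p = 0.0391 from edgeR). *Flnc* (189 and 181 and 257 and 320.1 CPM against 710.1 and 573 and 327 and 422 CPM) and *Ankrd2* were called with adjusted p = 0.0406 and 0.0406. *Des*, *Ankrd1* and *Klhl41* were not called, with log2 fold changes of 0.89, 1.24 and 3.37. DESeq2, over libraries and without regard to clones, called *Ankrd1*, *Klhl41*, *Tpm2* and *Actn3* (adjusted p = 0.0196, 0.0161, 0.0102 and 0.0213). *Des* was at 842 and 1095 and 870.4 and 1093 CPM in TET2-WT and 3298 and 2132 and 1108 and 693 CPM in TET2-S97E, so the clone 2 libraries of TET2-S97E lay just above and below the TET2-WT range. *Ankrd1* was at 165 and 169 and 162 and 77.2 CPM against 649.7 and 170.0 and 339 and 196 CPM, and *Klhl41* at 2.62 and 2.37 and 4.26 and 23.8 CPM against 193 and 95.2 and 44.2 and 9.21 CPM.

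With the replicate number as a block, *Acta1*, *Mylpf*, *Flnc*, *Lmod2* and *Xirp1* were not called (adjusted p = 0.0932, 0.0819, 0.0609, 0.0759 and 0.0614 from edgeR). The count of 18 moved with single libraries. It was 4 and 5 without replicate 1 or 2 of TET2-WT clone 1, 3 and 25 without replicate 1 or 2 of TET2-WT clone 2, 6 and 12 without replicate 1 or 2 of TET2-S97E clone 1, and 11 and 25 without replicate 1 or 2 of TET2-S97E clone 2. Without TET2-WT clone 1 it was 0, without TET2-WT clone 2 it was 15, without TET2-S97E clone 1 it was 7, and without TET2-S97E clone 2 it was 30. Over all genes the 498 higher became 178 and 218, 163 and 601, 265 and 447, and 365 and 473 without a library, and 100, 319, 484 and 687 without a clone, in the same order. The summed myotube markers were higher in every TET2-S97E library than in every TET2-WT library, with 6 of 7 called over libraries. The share of counts on mitochondrial genes was 2.03% to 2.29% for TET2-S97E, 1.14% and 1.00% in TET2-WT clone 1, and 1.38% and 2.15% in TET2-WT clone 2, whose replicate 2 is the TET2-WT library in which most of the 18 members were highest. The part of the markers and of the mitochondrial share in the result was not tested.

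**Figure D4:**
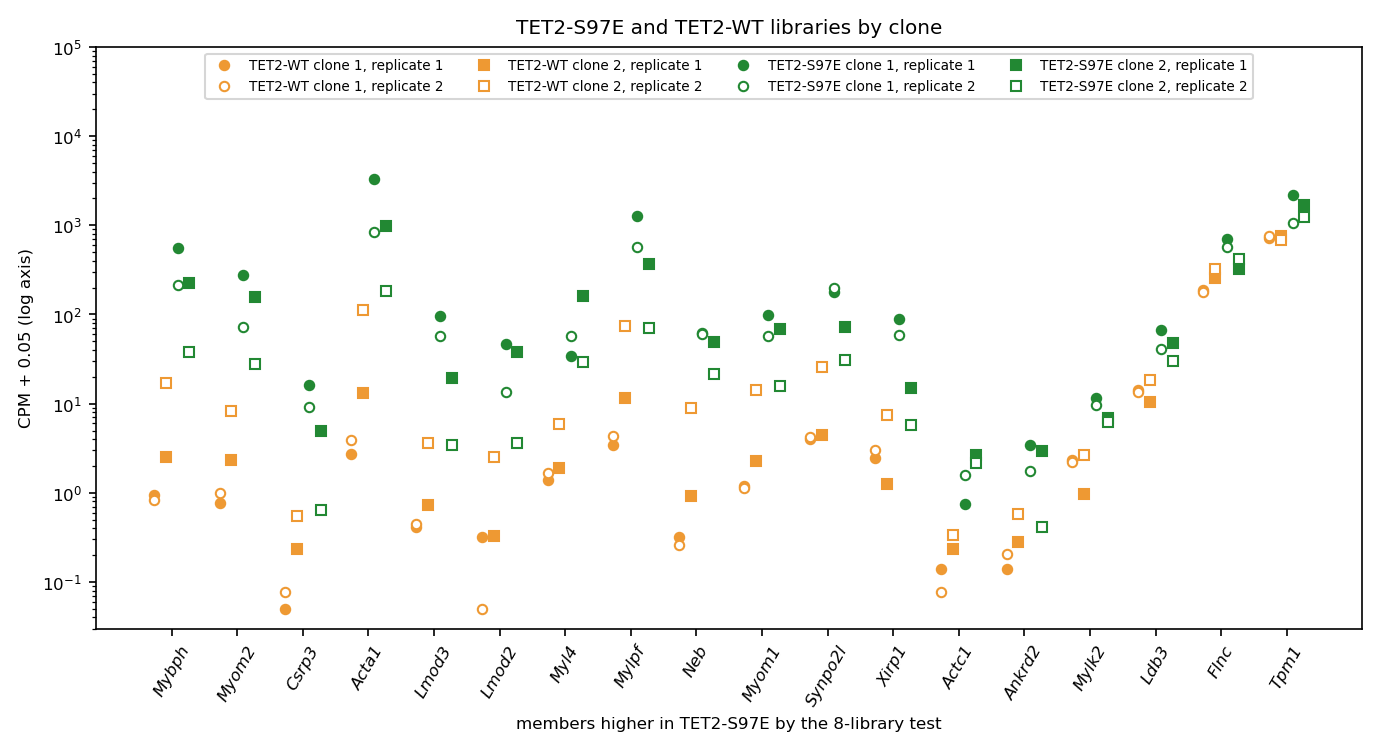
Normalized level (CPM + 0.05, log axis) of the 18 members higher in TET2-S97E over libraries, with orange marks for TET2-WT, green for TET2-S97E, circles for clone 1, squares for clone 2, filled for replicate 1 and open for replicate 2. In most members TET2-WT clone 2 replicate 2 is the highest orange mark and TET2-S97E clone 2 replicate 2 the lowest green mark, and the gap between them is smaller than that between the clone 1 marks.

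Clones of 1 genotype were compared to see how far they differ without a change of genotype. In TET2-S97E, clone 2 was lower than clone 1 in 5 of 42 members tested and higher in none, against 2.82% lower and 3.35% higher of all 14459 genes. With no adjustment of p (under 0.05), 19 were lower and 2 higher, against 9.05% and 10.5% of all genes, and DESeq2 called 8 lower and 1 higher among 733 and 650 genes. The 5 were *Trim55* and *Actn3*, *Des*, *Obsl1* and *Xirp1*. Of the myoblast markers, among which *Des* is also listed, 4 of 6 were called lower in clone 2 as well, and of the myotube markers 2 of 7, and their part in the members' difference was not tested. The summed myoblast markers were at 5676 and 4166 CPM in clone 1 and 1954 and 1530 CPM in clone 2, with *Des* the most abundant in each library. The summed myotube markers were at 1916 and 874 CPM against 832 and 196 CPM. *Tnnt3* was the most abundant of them except in clone 2 replicate 2, where *Atp2a1* was (48.3 against 39.3 CPM). Of 8 interferon-response genes tested, 1 was called higher in clone 2 and all 8 lay above 0 (median log2 fold change 1.68). Their part was not tested. *Trim55*, a RING finger protein that binds titin and microtubules, was at 143 and 109 CPM in clone 1 and 14.0 and 15.2 CPM in clone 2 (log2 fold change −3.10, adjusted p = 0.000115 from edgeR), with the TET2-WT libraries between them at 39.8 and 37.2 and 30.7 and 36.2 CPM. *Actn3* differed between the clones by −2.94 and *Des* by −1.59 on the log2 scale (adjusted p = 0.0046 and 0.014). In TET2-WT no member was called between clones (0.394% of all genes lower and 0.463% higher), with a median log2 fold change of 1.504 over 42 members, which was 0.47 without TET2-WT clone 2 replicate 2 and 2.23 without replicate 1. There 18 members were higher in clone 2 and none lower at an unadjusted p under 0.05, against 10.7% and 9.77% of all genes, and DESeq2 called 5 higher among 492 genes. Of the 7 myotube markers none was called there, and 6 were higher in clone 2 at an unadjusted p under 0.05. Their median log2 fold change was 2.56, and their part in the members' difference was not tested. Leaving out any 1 of the 8 libraries moved the count of 5 in TET2-S97E to between 2 and 13. It was 13 without TET2-S97E clone 2 replicate 1, 2 without TET2-S97E clone 2 replicate 2 or clone 1 replicate 1, 3 without either library of TET2-WT clone 1 and 10 without either library of TET2-WT clone 2. Over all genes the 408 lower became 289, 209 and 213, 214 and 209, and 470 and 476 in the same order. In TET2-WT the count higher was 5 without TET2-WT clone 2 replicate 1, 0 without its replicate 2, and 4 and 3 without replicate 1 or 2 of TET2-S97E clone 2, where 113, 23, 179 and 160 of all genes were higher and 67 were with all libraries.

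Paralogs were set side by side in TPM, as a level in each library. *Acta1* exceeded *Actc1* in every library where both were above the floor, by 12.2 and 5.36 times in WT at d0, 17.4 and 11.2 times in WT at d8, and 217 and 34.6 times in AMPK-KO at d8. In TET2-S97E, *Acta1* was 4940 and 578 times *Actc1* in clone 1 and 406 and 89.9 times in clone 2. *Actn3* exceeded *Actn2* by 337 and 602 times in WT at d0, 35.9 and 20.4 times in WT at d8 and 465 and 188 times in AMPK-KO at d8. In TET2-S97E clone 2 replicate 1 it did so by 26.8 times. *Tpm1* was below *Tpm2* in WT at d8, with ratios of 0.570 and 0.438, and in AMPK-KO at d8 the ratios were 1.62 and 0.701. *Xirp1* exceeded *Xirp2* by 16.5 and 7.48 times in WT and 168 and 64.2 times in AMPK-KO at d8. *Myl1* stood at 2.85 and 3 times *Myl4* in WT and at 42.4 and 15.6 times in AMPK-KO at d8. At d0 it stood at 14.7 and 7.23 times in WT and 10.6 and 9.93 times in AMPK-KO. In TET2-S97E it was at 108 and 27.8 times in clone 1 and 6.23 and 5.97 times in clone 2. None of these ratios was tested.

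The rest of the contractile machinery was read through lists. Of 9 sarcomeric myosin heavy chains and 7 troponins tested, none was called in AMPK-KO against WT at d0 or d8, while at an unadjusted p under 0.05 1 heavy chain and 2 troponins were lower at d0, and 3 heavy chains and no troponin at d8 (edgeR). The summed heavy chains, with *Myh3* the most abundant, were at 16.6 and 17.2 CPM in WT and 0.471 and 0.468 CPM in AMPK-KO at d0. Of 24 other sarcomere and assembly proteins, 2 were lower at d0, *Jsrp1* (log2 fold change −4.51) and *Stac3* (−2.41), both proteins of excitation-contraction coupling, and 1 at d8, *Cap2*, a cyclase-associated protein that acts on actin filaments (−5.56). Of 21 cytoskeletal paralogs 4 were lower at d0 and 1 higher, *Mylk*, smooth muscle and nonmuscle myosin light chain kinase (3.04, adjusted p = 0.00842 from edgeR), with *Myl9* among the lower (−2.38). At d8, 4 cytoskeletal paralogs were lower and 1 was higher in AMPK-KO cells. In WT cells at d8 against d0, 5 of 9 heavy chains, 6 of 7 troponins and 12 of 24 other sarcomere proteins rose, while 7 of 21 cytoskeletal paralogs fell and 1 rose. In AMPK-KO cells 5, 7 and 11 of the same lists rose, and 2 cytoskeletal paralogs fell and 1 rose.

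In TET2-S97E against TET2-WT, all 5 heavy chains tested, 5 of 7 troponins and 8 of 23 other sarcomere proteins were higher over libraries. Of the 20 cytoskeletal paralogs 2 were higher, the smooth muscle actins *Acta2* and *Actg2* (1.77 and 5.36 on the log2 scale). Of the 9 myogenic transcription factors tested, 2 were lower in AMPK-KO myoblasts, *Myod1* (−3.29) and *Myog* (−5.36), and none at d8, and 3 were higher in TET2-S97E, *Mef2c*, *Myog* and *Myod1*. None of these list calls in TET2-S97E held with counts summed per clone, where 0 of 15126 genes were called. Of the markers of other cell types, smooth muscle markers summed to 861.2 to 2424 CPM in WT and AMPK-KO myoblasts, 431.6 to 773.6 CPM in TET2-WT and 1105 to 2170 CPM in TET2-S97E, with *Acta2* the most abundant. Cell cycle markers summed to 1699 to 2810 CPM at d0 and 312.8 to 616.4 CPM at d8 in the first table, and to 216.5 to 429.6 CPM in TET2-WT and 431.2 to 911.5 CPM in TET2-S97E, also at d0. Of the 10, 9 fell in WT and 10 in AMPK-KO cells from d0 to d8, 2 were higher in TET2-S97E (median log2 fold change 1.02, all 10 above 0), and 2 were lower in TET2-WT clone 2 than in clone 1 (−1.11, all 10 below 0). Fibroblast markers, with *Col3a1* the most abundant, summed to 2262 to 4696 CPM at d0 and 8036 to 11810 CPM at d8 in WT and AMPK-KO cells, and to 9497 to 16570 CPM in the TET2 lines. Of 5 tested, 3 rose in WT and 1 in AMPK-KO cells from d0 to d8, 2 fell below WT in AMPK-KO cells at d8, 2 were higher in clone 2 than in clone 1 of each TET2 genotype, and none was called between the TET2 genotypes or at d0. Adipocyte markers, with *Cebpa* the most abundant, summed to at most 116.1 CPM. Cardiomyocyte markers summed to at most 26.7 CPM. The part of these cells or states in the results was not tested.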

How the data were processed

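RNA-seq of C2C12 cells was analysed in 16 libraries, 8 in each of 2 tables of raw read counts per gene that the authors deposited. Total RNA was depleted of rRNA and sequenced as paired ends. Per the labels and the study's methods, the authors used bcl2fastq 2.17, trimmed reads with Trim Galore 0.4.5, aligned them to mm10 with STAR 2.5.3a and counted them with featureCounts 1.5.3. The strand setting and the handling of reads that map to several places are not given in the sources used here, so paralogs and overlapping genes may share reads. Of 49585 gene IDs, 49326 were found in GENCODE M21, which gave positions and exon lengths. Library totals spanned 17883417 to 24663079 counts (WT and AMPK-KO) and 19801909 to 37790358 counts (TET2 lines).

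Each table was normalized by TMM, filtered with filterByExpr and fitted with edgeR 4.0.16 (R 4.3.3) by the quasi-likelihood test, with 1 mean a group and Benjamini-Hochberg adjustment over all genes tested, with a threshold of 0.05. The steps were tested on simulated data. Upper-quartile and median-of-ratios normalization, no filter, DESeq2 1.42.0, limma 3.58.1 with clone as a random effect, counts summed per clone, the replicate block and leaving out each library or clone were tried as alternatives. Nothing in the labels says that replicates were separate cultures, so p-values measure the spread between these libraries, which may be technical. An exact two-sided permutation test of 2 libraries against 2 cannot go below p = 0.33. Replicates of a group differed by far more than sampling noise (chi-square per degree of freedom 31.8 to 117), so none was treated as a library deposited again. This does not show that replicates are independent.

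Replicate numbers in the labels were checked as pairs. In the first table, deviations from the group means correlated across genes between same-numbered libraries at 0.130 to 0.369 in all pairs of groups. In the second table the range was −0.0542 to 0.539. The main tests of both tables did not use these pairs, and the replicate number was fitted as a block only as an alternative. The members and gene lists were chosen with earlier results of these data known. Full values were given for the 2 members of each role with the highest mean TPM in the first table and for up to 12 called members of a comparison by adjusted p. Promoter sequences are from RefSeq on GRCm38.p6.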

Additional observations from a re-analysis of the deposited data

Results flagged for a closer look

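In 56 sets of 4 libraries of 1 TET2 genotype, the gap between the highest or lowest library and its nearest neighbour was divided by the range of the set, and 5 sets exceeded Dixon's critical value. Chance flags about 1 in 20 groups (5%) of 4 independent values. The sets here hold 2 libraries from each of 2 clones, so this share need not apply to them. All 5 were in TET2-WT. *Synpo2l* was high in clone 2 replicate 2 (0.941) and *Ankrd1* was low in the same library (0.948). *Mylk2* was low in clone 2 replicate 1 (0.833). *Nebl* and *Xirp2* had counts in clone 1 replicate 2 alone (3 counts and 1 count), which fixes the ratio at 1 for both, however few the counts. *Obsl1* was higher in both AMPK-KO libraries than in WT at d0 and lower in both at d8, and the difference of the log2 fold changes, −1.19, did not pass the test (adjusted p = 0.876 from edgeR).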

How the results depend on the processing

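The direction of 404 of 405 gene values was kept under the alternatives other than leaving out single libraries or clones, and 330 kept their call. The exception was *Klhl41* in AMPK-KO against WT at d8, which was at −0.20 with the replicate block. With DESeq2, AMPK-KO against WT gave 18 members lower and 1 higher at d0 and 1 higher at d8, the difference between the d8 against d0 changes gave 1 lower and 2 higher, TET2-S97E clone 2 against clone 1 gave 8 lower and 1 higher, and TET2-WT clone 2 against clone 1 gave 5 higher. With no filter on low counts 27 members were lower and 1 higher at d0, and 25 lower and 1 higher at d8. With the filter, 100 and 195 of all genes were higher on these days. At d8 against d0 in WT 1 member was lower without the filter, where 943 of all genes were lower with it. The difference gave 1 lower and 14 higher (181 and 268 of all genes, from 0 and 0). Between the TET2-S97E clones 26 were lower and 3 higher (853 and 827 of all genes, from 408 and 484). Between the TET2-WT clones 1 was lower and 21 higher (526 and 1101 of all genes, from 57 and 67). Upper-quartile normalization gave 1 member higher between the TET2-S97E clones, where TMM gave none and 484 of all genes. With the libraries of d8 alone, 3 were lower in AMPK-KO cells. In TET2-S97E against TET2-WT, counts summed per clone gave 0 and limma-voom 1 member higher. With the replicate block, 10 members were lower at d8 in AMPK-KO cells. It gave 10 higher in TET2-S97E, where same-numbered libraries correlated at −0.0542 to 0.539 between groups. Between the TET2-S97E clones 10 were lower and 1 higher. Over all genes the block gave 815, 430, 737 and 803 in the same order. The block also changed the calls of *Actn3* and *Des* given above and ended those of *Acta1*, *Mylpf*, *Flnc*, *Lmod2* and *Xirp1* in TET2-S97E. Leaving out a library gave 0 to 16 members lower at d0 and 1 to 15 at d8 in AMPK-KO cells, 0 to 34 higher at d8 in WT and 0 to 34 in AMPK-KO cells, 2 to 13 lower and 0 to 2 higher between the TET2-S97E clones, and 0 to 5 higher between the TET2-WT clones. Over all genes the ranges were 13 to 518, 99 to 678, 0 to 978, 0 to 884, 209 to 476, 225 to 538 and 0 to 179 in the same order. Leaving out a library or a clone gave 0 to 30 higher and 0 to 1 lower in TET2-S97E, against 100 to 687 and 83 to 499 of all genes. The members' median for the difference ranged from −0.23 to 1.12. For AMPK-KO against WT, directions turned at d0 for *Tpm2* (−0.52 to 0.15), *Flnc* (−0.87 to 0.19) and *Klhl41* (−2.33 to 0.06), and at d8 for *Acta1* (−1.63 to 0.97), *Tpm2* (−1.31 to 0.33), *Mylpf* (−1.55 to 0.44), *Myl1* (−0.54 to 0.91), *Des* (−1.26 to 0.01) and *Klhl41* (−2.17 to 1.14). In TET2-S97E *Des* ranged from −0.12 to 1.47. The cause was not tested.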
